A study of Mus musculus with 12 samples.

Results

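The 10 genes described here are inhibitors of the cell cycle and genes of the p53 response, which are known as antiproliferative targets of vitamin D in cancer cells. They are the cyclin-dependent kinase (CDK) inhibitors Cdkn1a, Cdkn1b, Cdkn1c and Cdkn2b, the transcription factor gene Trp53 itself, its inhibitor Mdm2, and the p53 targets Ccng1, Gadd45a, Bax and Bbc3. Every non-control probe whose transcript accession maps to one of these symbols was taken, which gave 12 probes for the 10 genes. These are 10 of 24245 genes and 12 of 55681 probes measured on the arrays. Of the 24245, 14905 have a gene symbol, and the rest are transcripts or regions counted by the array's own identifier. Shares of all genes include both kinds. RNA came from colonic organoids, crypt epithelium grown as 3-dimensional cultures enriched in stem cells, of C57BL/6 mice. The 4 groups were Vdr-knockout (VDR KO) cultures with calcitriol, VDR KO cultures with vehicle, wild-type cultures with calcitriol and wild-type cultures with vehicle, each with 3 arrays. Calcitriol (1,25(OH)2D3), the active hormone of vitamin D, was given at 100 nM and again every 48 h, and the vehicle was ethanol (EtOH). The culture of each of 3 mice per genotype was split between the treatments, so that 12 arrays hold 6 mice aged 2 or 3 months. Exposure lasted 72 h by the text on the whole study but 62 h by the notes on single samples.

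As background, CDK inhibitors hold back the kinases that drive a cell from G1 into S phase. p53 is a transcription factor that is controlled mostly as a protein: Mdm2 marks it for degradation, and DNA damage and other stresses stabilise it. Its targets include Cdkn1a, which arrests the cycle, Mdm2, which closes a feedback loop, and Bax and Bbc3, which drive apoptosis. The vitamin D receptor, encoded by Vdr, binds calcitriol and acts as a transcription factor in the intestinal epithelium, where calcium transport genes are its best-known targets. In many cancer cell lines calcitriol slows growth, and Cdkn1a, Cdkn1b and Gadd45a are among the genes described there as raised.

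Levels are log2 of the processed spot intensity relative to the 75th percentile of the same array, so that 1 unit is a 2-fold change, and they describe 1 probe across arrays, not genes against each other. All 12 probes were well above background on all 12 arrays, and none of their spots was saturated. Because the RNA is from whole cultures, fewer cells of a type and less RNA per cell cannot be told apart. The arrays had 55.0% to 72.8% of their spots above background, and the highest share belonged to the wild-type vehicle array of mouse 2, which stands apart from the others (55.0% to 66.4%). The hormone response itself was present. S100g, a calcium-binding protein gene of the intestine, averaged 7.10 ± 0.17 with calcitriol and -0.40 ± 0.29 with vehicle in wild type (SD, n = 3 each; limma adjusted p = 5.3e-10). Trpv6, Atp2b1 and Cyp24a1 also rose there, and in VDR KO cultures none of the 4 was called. Vdr averaged -0.00 ± 0.31 in VDR KO and 1.60 ± 0.44 in wild type with vehicle (SD, n = 3 each), a difference of -1.60 with limma adjusted p = 0.322, or 0.0279 with the replicate number as a block. Neither the knockout allele nor whether that probe lies in a deleted part is given in the sources used here. All 12 epithelial markers were above background on all 12 arrays. Of 7 fibroblast markers 1 was (Vim). Col1a2 was above background on 11 arrays, Col1a1 on 7, Col3a1 on 6 and Dcn on 1, and Pdgfra and Lum on none. Of 7 immune markers 3, and of 5 endothelial markers 3, were above background on all 12 arrays. On the linear scale the summed level was 0.20 to 0.57 for the fibroblast, 9.86 to 22.3 for the immune and 4.01 to 8.96 for the endothelial markers, beside 1050 to 1378 for the epithelial ones. These sums join different probes and lists of different length, so they do not measure shares of cells. In the immune list Itgam (mean level 3.20) and Cd68 (1.78) were highest, while Ptprc was at -5.61. The mice numbered 2 are labelled female and had Ddx3y, a Y-linked gene, at 0.56 to 0.75, while the mice numbered 1 are labelled male and had it at -8.18 to -7.44. The sex labels of these mice therefore went against that probe in both genotypes.

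The promoters of both Cdkn1a start sites are shown because its 2 probes are annotated to different transcript accessions, and that of Bax because it is the other member whose letters matched a p53 response element. RefSeq's table on GRCm38.p6 lists 12 start sites for 9 of the 10 genes, with 250 bases before and 50 bases after each start, and Cdkn1c was not among them. The p53 response element is a pair of 10-base arms. It was searched with intact cores, at most 2 mismatches in all and a spacer of up to 13 bases; the element is palindromic, so that the search covers both strands. Capitals mark the letters of the matches, each sequence is written 5′ to 3′ on the gene's strand, and all are from RefSeq.
Cdkn1a upstream start, chr17:29090729-29091028, plus strand: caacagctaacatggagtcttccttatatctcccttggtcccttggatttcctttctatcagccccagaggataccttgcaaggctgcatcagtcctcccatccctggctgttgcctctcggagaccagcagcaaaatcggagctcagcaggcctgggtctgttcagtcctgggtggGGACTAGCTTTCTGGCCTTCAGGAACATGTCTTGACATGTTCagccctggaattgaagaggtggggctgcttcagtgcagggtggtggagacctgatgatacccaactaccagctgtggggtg
Cdkn1a downstream start, chr17:29093519-29093818, plus strand: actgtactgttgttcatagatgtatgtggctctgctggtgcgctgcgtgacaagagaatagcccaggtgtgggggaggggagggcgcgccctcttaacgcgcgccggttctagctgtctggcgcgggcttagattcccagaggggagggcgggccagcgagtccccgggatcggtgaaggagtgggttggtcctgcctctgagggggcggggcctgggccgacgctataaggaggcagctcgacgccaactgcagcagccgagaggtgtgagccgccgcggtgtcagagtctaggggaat
Bax, chr7:45466849-45467148, minus strand: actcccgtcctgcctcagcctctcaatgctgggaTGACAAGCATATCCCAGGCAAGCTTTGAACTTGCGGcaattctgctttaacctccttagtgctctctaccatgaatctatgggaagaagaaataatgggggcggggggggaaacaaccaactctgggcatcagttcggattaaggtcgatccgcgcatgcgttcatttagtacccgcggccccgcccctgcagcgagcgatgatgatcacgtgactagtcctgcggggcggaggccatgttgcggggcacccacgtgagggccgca
The upstream Cdkn1a promoter held 2 overlapping matches. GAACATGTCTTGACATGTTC had no spacer and 1 mismatch, and the other had a 12-base spacer and 0 mismatches. Bax held 2 overlapping matches with 2 mismatches each, and the other 10 start sites held none. The same search found a match in 2.12% of 32851 promoters. A vitamin D response element of the DR3 type (direct repeat with a 3-base spacer, both strands, at most 1 mismatch) was found at none of the 12 start sites and in 1.73% of all promoters. These letters describe short windows and leave distant sites unread.

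Calcitriol moved none of the 10 genes past the threshold in either genotype. In VDR KO cultures the limma test called 0 of the 10 members, where it called 0% of all genes (0 genes; 1400 genes, or 5.77%, had an unadjusted p under 0.05, none of them a member). In wild-type cultures it also called 0 of the 10, where 39 genes (0.161%) were called over the whole array. The difference between both effects, tested as such, was called for 0 of the 10 members and for 0.0289% of genes. Calcitriol and vehicle groups overlapped for each of the 10 genes in both genotypes, while 7.47% of genes in VDR KO and 8.96% in wild type had groups that did not overlap. The median effect over the 10 members was -0.06 in VDR KO and -0.04 in wild type, while over all genes it was 0.04 in VDR KO and -0.03 in wild type. With the mouse as a block, 0% of genes were called in VDR KO and 0.969% in wild type, and again no member. The difference of effects was called for 0.239% of genes in that fit, without a member.
The slides held the groups unevenly. All 3 wild-type calcitriol arrays and 2 of the 3 VDR KO calcitriol arrays were on the largest slide of 7 arrays, with the vehicle array of mouse 3 of each genotype. The other 2 vehicle arrays of VDR KO were alone on a slide, and those of wild type shared one with the last VDR KO calcitriol array. No member was called with the slide as a block or on the largest slide alone. In both fits the VDR KO vehicle level rests on the array of mouse 3, since the other 2 were alone on a slide. Their VDR KO calcitriol effects are therefore not differences within mice. The differences within mice in turn cross slides in every mouse but wild-type mouse 3. Signs counted by mouse and the fit with the mouse as a block therefore mix treatment with slide, which cannot be told apart there. On the largest slide alone the wild-type vehicle level is also that of mouse 3. With the slide as a block, the wild-type vehicle level draws in part on the VDR KO calcitriol array of mouse 3, which shared that slide. The wild-type effects of that fit are therefore not differences within wild type alone. The calcitriol effects of Cdkn1b, Mdm2, Ccng1 and Bax in those fits ran from -0.23 to 0.13, and those of Trp53 from -0.38 to -0.30. The other members are given below.

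**Figure D1:**
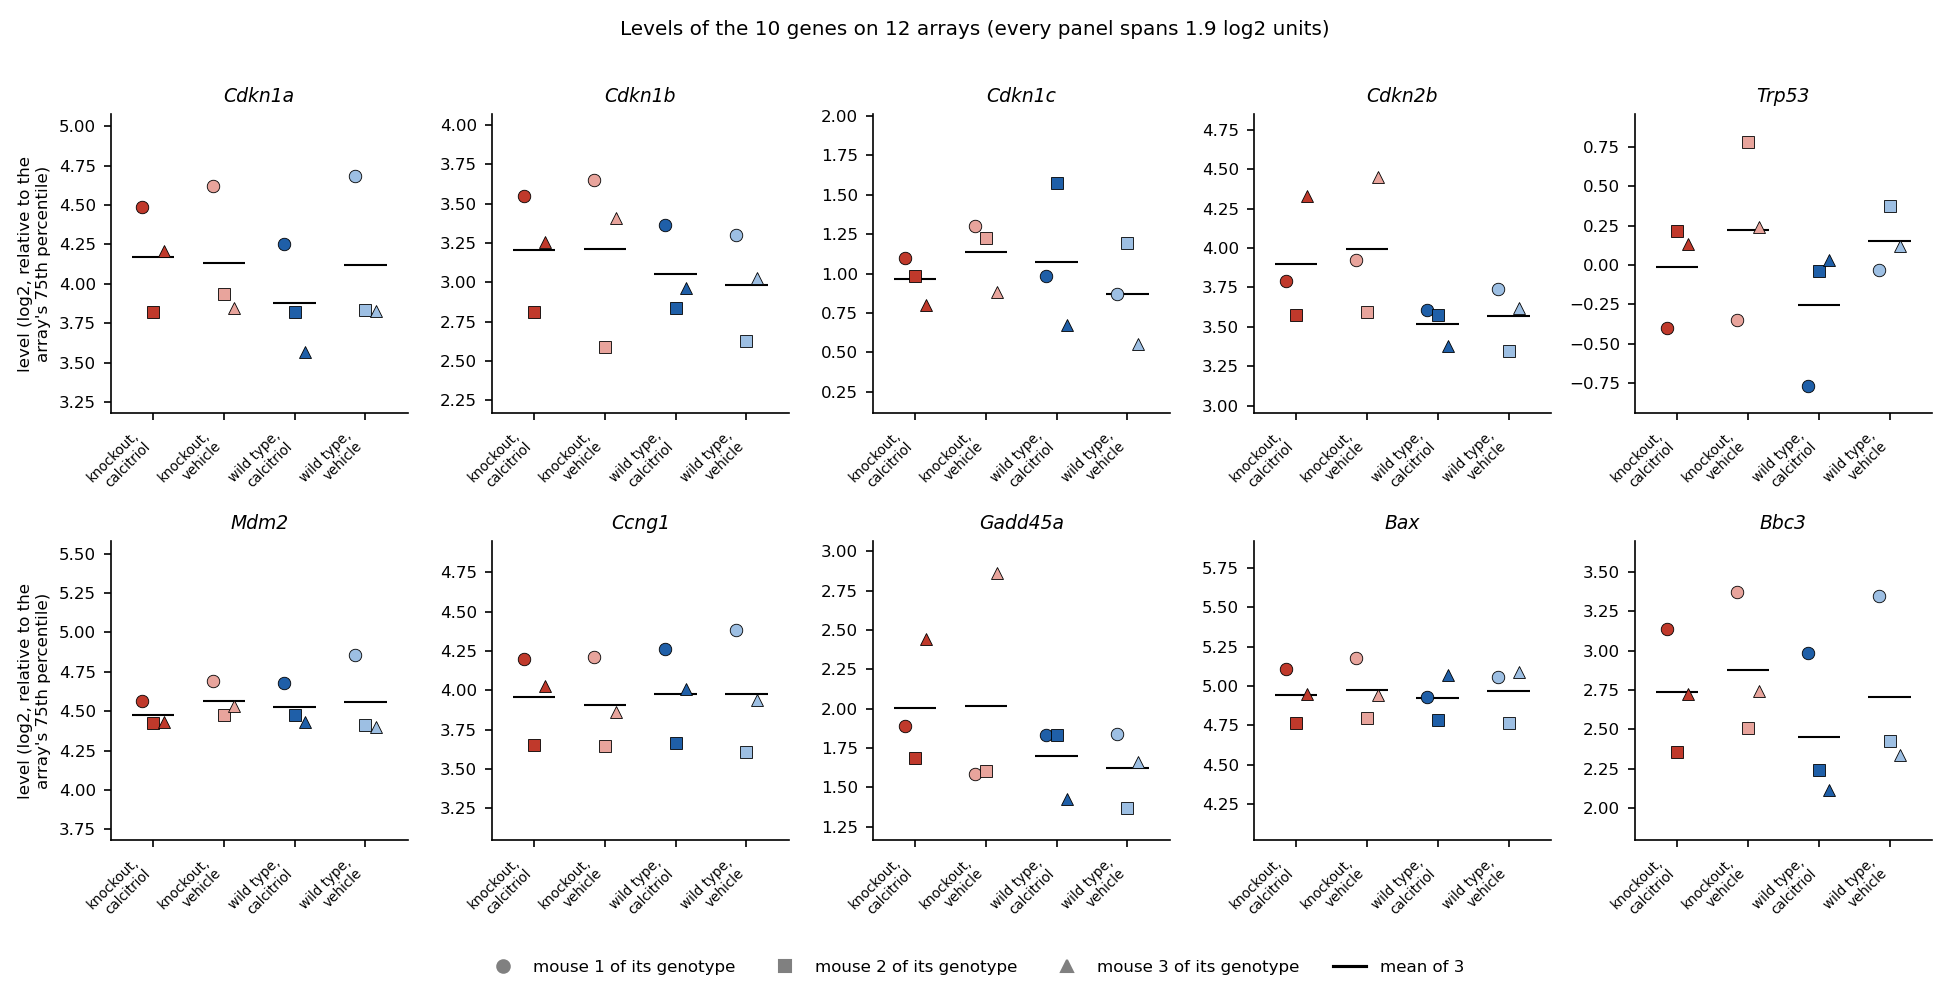
Levels of the 10 genes (log2, relative to the 75th percentile of each array) in the 4 groups, with a point for each array, shaped by the number of the mouse, and a line at the mean of 3. The calcitriol and vehicle groups overlap in every panel, and the circles of mice numbered 1 stand highest within each group for Cdkn1a, Mdm2, Ccng1 and Bbc3.

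Cdkn1a encodes p21, the CDK inhibitor that p53 induces. Its level on the probe with 10 spots per array was 4.49, 3.82 and 4.21 with calcitriol and 4.62, 3.94 and 3.85 with vehicle in VDR KO mice 1, 2 and 3. In wild-type mice 1, 2 and 3 it was 4.25, 3.82 and 3.57 with calcitriol, against 4.69, 3.83 and 3.83 with vehicle. The high values in every group were those of mouse 1, and the treatment groups overlapped. The effect of calcitriol was 0.04 in VDR KO (SE 0.29) and -0.24 in wild type (SE 0.29; limma adjusted p = 1 for both). With the slide as a block it was 0.24 in VDR KO and -0.07 in wild type, and on the largest slide alone 0.31 in VDR KO and 0.05 in wild type. Without the vehicle array of mouse 1 the wild-type effect was also 0.05. Cdkn1a was lower with calcitriol in 5 of 6 mice, and in 3 of 6 when arrays were scaled to their median. In the fit of group means the 95% interval of the wild-type effect ran from -0.86 to 0.39, so that its upper end is a 1.31-fold increase, and with the mouse as a block it ended at 1.03-fold. Spots of the same probe on 1 array had an SD of 0.02 to 0.06, well under the spread between mice (SD 0.34 to 0.49 within groups).
The other Cdkn1a probe, which is annotated to a different transcript accession and has 1 spot, gave an effect of 0.09 in VDR KO (SE 0.53) and -0.08 in wild type (SE 0.53), also without a call. Which of the start sites shown above makes that transcript is not stated in the table used.

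Cdkn1b encodes p27, an inhibitor of CDK2 complexes that accumulates in resting cells. It averaged 3.21 ± 0.37 with calcitriol and 3.21 ± 0.56 with vehicle in VDR KO, and 3.05 ± 0.28 with calcitriol and 2.98 ± 0.34 with vehicle in wild type (SD, n = 3 each). Its effect was -0.01 in VDR KO and 0.07 in wild type (limma adjusted p = 1 for both). Cdkn1c encodes p57, an imprinted inhibitor of the same family. It was lower after calcitriol in 3 of 3 VDR KO mice, with calcitriol minus vehicle at -0.20, -0.24 and -0.08 in mice 1, 2 and 3, and higher in 3 of 3 wild-type mice, at 0.11, 0.38 and 0.12. The difference of these effects, wild type minus knockout, was 0.38 (SE 0.33, 95% interval -0.35 to 1.1, limma adjusted p = 1). The opposite pattern of signs held for 1 of the 10 members and for 1.32% of all genes. With the mouse as a block the unadjusted p was 0.0159 and the adjusted p 0.546. In that fit 8.01% of genes, and Cdkn1c as 1 of the 10 members, had an unadjusted p under 0.05. With the slide as a block the VDR KO effect was 0.04, and on the largest slide alone 0.16. Both values rest on the VDR KO vehicle array of mouse 3 and are not differences within mice. The wild-type effect was -0.05 without the calcitriol array of mouse 2. Cdkn2b encodes p15, an inhibitor of CDK4 and CDK6 that TGF-beta induces. Its calcitriol effect was -0.09 in VDR KO and -0.05 in wild type (SE 0.23 for both; limma adjusted p = 1). With the slide as a block it was -0.65 in VDR KO and 0.14 in wild type. On the largest slide alone it was -0.77 in VDR KO and -0.10 in wild type. Both VDR KO values rest on the VDR KO vehicle array of mouse 3. The wild-type value with the slide as a block draws in part on the VDR KO calcitriol array of mouse 3. Within VDR KO mice 1, 2 and 3 calcitriol minus vehicle for Cdkn2b was -0.13, -0.02 and -0.12. Its other probe gave -0.06 in VDR KO and -0.20 in wild type without a call.

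Trp53 mRNA was lower with calcitriol in 6 of 6 mice, but not past the threshold. Its levels in VDR KO mice 1, 2 and 3 were -0.40, 0.22 and 0.13 with calcitriol and -0.35, 0.78 and 0.24 with vehicle. In wild-type mice they were -0.77, -0.04 and 0.03 with calcitriol, against -0.03, 0.38 and 0.12 with vehicle. Both pairs of groups overlapped, and the size of the step differed widely from mouse to mouse. The effect was -0.24 in VDR KO (SE 0.30) and -0.41 in wild type (SE 0.30, 95% interval -1.06 to 0.24), each with limma adjusted p = 1, or 0.6 and 0.424 with the mouse as a block. Of the 10 members 2 (Trp53 and Bbc3), and of all genes 2.11%, were lower in 6 of 6 mice. When arrays were scaled to their median, both were lower in 3 of 6 mice. Calcitriol and vehicle arrays were on different slides in every mouse but wild-type mouse 3. Mdm2, the ubiquitin ligase gene that p53 itself activates, averaged 4.47 ± 0.08 with calcitriol and 4.57 ± 0.11 with vehicle in VDR KO, and 4.53 ± 0.13 with calcitriol and 4.56 ± 0.26 with vehicle in wild type (SD, n = 3 each). The 95% interval of its wild-type effect, -0.33 to 0.27, ended at a 1.21-fold increase.

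Of the p53 targets, Ccng1 (cyclin G1, a partner of Mdm2 in limiting p53) had a calcitriol effect of 0.05 in VDR KO and 0.00 in wild type (SE 0.23 for both). Bax, the pore-forming effector of apoptosis at mitochondria, had one of -0.03 in VDR KO and -0.04 in wild type (SE 0.14 for both). Calcitriol and vehicle differed by no more than 0.17 for either gene in any of the 6 mice. Gadd45a, a stress sensor of growth arrest and DNA repair, had levels of 1.89, 1.69 and 2.44 with calcitriol and 1.59, 1.6 and 2.86 with vehicle in VDR KO mice 1, 2 and 3. In wild-type mice it had 1.83, 1.83 and 1.43 with calcitriol, against 1.84, 1.37 and 1.66 with vehicle. VDR KO mouse 3 was highest under both treatments, and wild type shows no common direction. The effect was -0.01 in VDR KO and 0.07 in wild type (SE 0.32 for both), with the highest upper bound among the 10 genes in wild type, 1.70-fold (1.37-fold with the mouse as a block). Without the VDR KO vehicle array of mouse 3 the VDR KO effect was 0.41. With the slide as a block the effect was -0.95 in VDR KO and 0.27 in wild type. On the largest slide alone it was -1.07 in VDR KO and 0.04 in wild type. Both VDR KO values rest on that same vehicle array of mouse 3. The wild-type value with the slide as a block draws in part on the VDR KO calcitriol array of mouse 3. Within VDR KO mice 1, 2 and 3 calcitriol minus vehicle was 0.30, 0.08 and -0.42.
Bbc3 encodes PUMA, a BH3-only activator of apoptosis. Its levels in VDR KO mice 1, 2 and 3 were 3.14, 2.36 and 2.73 with calcitriol and 3.37, 2.51 and 2.74 with vehicle. In wild-type mice they were 2.99, 2.24 and 2.12 with calcitriol, against 3.35, 2.42 and 2.34 with vehicle. It was lower with calcitriol in 6 of 6 mice, by amounts smaller than the spread between mice. The effect was -0.14 in VDR KO and -0.26 in wild type (SE 0.33 for both; limma adjusted p = 1). With the mouse as a block the adjusted p was 0.581 in VDR KO and 0.276 in wild type, and in wild type the unadjusted p was 0.00975. With the slide as a block the effect was -0.09 in VDR KO and -0.08 in wild type, and on the largest slide alone 0.01 in VDR KO and 0.11 in wild type. Over the 10 genes, the block gave an unadjusted p under 0.05 for 3 members in wild type (Cdkn1c, Trp53 and Bbc3), where 10% of all genes reached it.

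**Figure D2:**
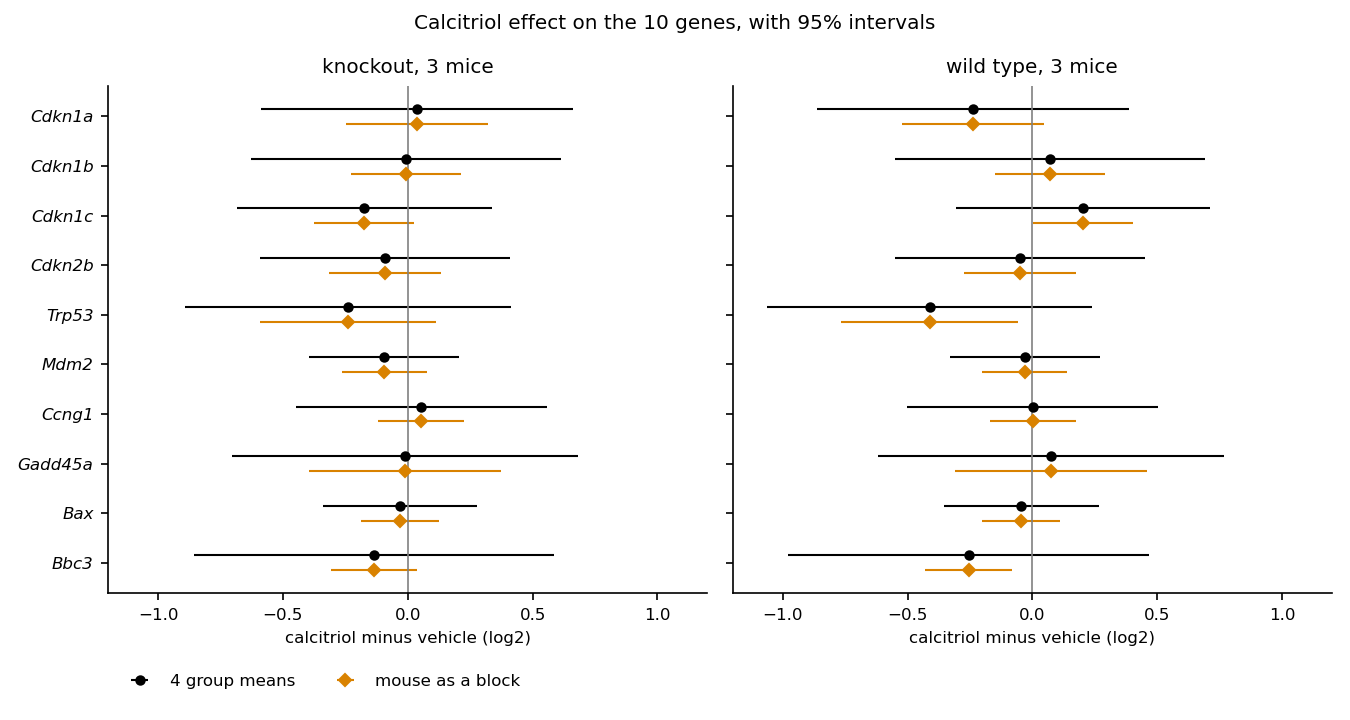
Calcitriol minus vehicle (log2) for the 10 genes in VDR KO and wild-type cultures, with 95% intervals from the fit of 4 group means and from the fit with the mouse as a block. Every interval of the group-mean fit crosses 0, and the block intervals that do not are those of Cdkn1c, Trp53 and Bbc3 in wild type.

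Genotype changed none of the 10 genes past the threshold. With vehicle, VDR KO against wild type gave 0 of the 10 members called, beside 0.00412% of all genes, and with calcitriol 0 of the 10, beside 0.206%. The groups overlapped for every member under both treatments (non-overlapping in 8.18% and 7.42% of all genes). The median difference over the members was 0.12 with vehicle and 0.20 with calcitriol, beside -0.06 and 0.01 for all genes. In the fit of group means Cdkn2b had the largest difference with vehicle. Its levels there were 3.93, 3.6 and 4.45 in VDR KO mice 1, 2 and 3 and 3.74, 3.35 and 3.62 in wild-type mice, a difference of 0.42 (SE 0.23, 95% interval -0.08 to 0.92, limma adjusted p = 0.627). With the replicate number as a block the unadjusted p was 0.0149 and the adjusted p 0.318, and 14.4% of all genes reached an unadjusted p under 0.05 in that fit. With calcitriol the difference was 0.38 (SE 0.23). The other Cdkn2b probe gave 0.29 with vehicle and 0.43 with calcitriol, each without a call. Without the VDR KO vehicle array of mouse 3, which held the highest level of both Cdkn2b and Gadd45a, the difference of Cdkn2b with vehicle was 0.19. For Gadd45a the difference with vehicle was 0.39 (SE 0.32) with that array and -0.03 without it. With the slide as a block the differences with vehicle were 1.07 for Cdkn2b and 1.44 for Gadd45a. On the largest slide alone, with 1 vehicle array a genotype, they were 0.83 and 1.2. These larger values rest on the same VDR KO vehicle array of mouse 3, since the other VDR KO vehicle arrays were alone on a slide. They therefore do not show what the slide itself did.

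Several of these genes separated the mice. The pattern was noticed after the values were seen and is given without a test. In both genotypes the mouse numbered 1 stood apart. The 4 arrays of both mice numbered 1 all lay above the other 8 arrays for Cdkn1a, Mdm2, Ccng1 and Bbc3, so for 4 of the 10 genes, where 5.82% of all genes did. Cdkn1a was 4.25 to 4.69 on those 4 arrays and 3.57 to 4.21 on the other 8, a mean difference of 0.65. The other Cdkn1a probe was -0.17 to 0.02 on the 4 arrays and -1.58 to -1.22 on the other 8, a mean difference of 1.32. For the probe with 10 spots the ranges nearly touch, while those of the other probe, annotated to a different transcript accession, are well apart. Bbc3 was 2.99 to 3.37 against 2.12 to 2.74 (mean difference 0.78), Ccng1 4.20 to 4.38 against 3.61 to 4.03 (0.46), and Mdm2 4.57 to 4.86 against 4.40 to 4.53 (0.25).
Trp53 mRNA ran the other way. It was -0.77 to -0.03 in the mice numbered 1 and -0.04 to 0.78 in the others, a mean difference of -0.62, with ranges that just met. Cdkn1c, Cdkn2b, Gadd45a and Bax differed by -0.07 to 0.17, and Cdkn1b by 0.52, with ranges of 3.30 to 3.65 against 2.59 to 3.41. The mice numbered 2 had the lowest values for Cdkn1b, Ccng1 and Bax, with all 4 arrays below the other 8, as in 3.55% of all genes. By the labels these mice were 3 months old and all others 2 months, so that age and mouse number cannot be told apart here.
The arrays of the mice numbered 1 were spread over all 3 slides. On each slide they were above its other arrays for Cdkn1a, Mdm2, Ccng1 and Bbc3, which follows from lying above all other 8. For Trp53 they were below on each slide. The slides set 1 such array against 1, 1 against 2 and 2 against 5. Of all genes, 44.2%, 23.3% and 11.9% lay above there, and 55.8%, 46.6% and 15.5% below. For Cdkn1a the differences within the slides were 0.68, 0.67 and 0.59. Mice with the same number in different genotypes are different animals. The labels give the mice numbered 1 as male and those numbered 3 as female, all 2 months old, and name no shared litter, day or batch.

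**Figure D3:**
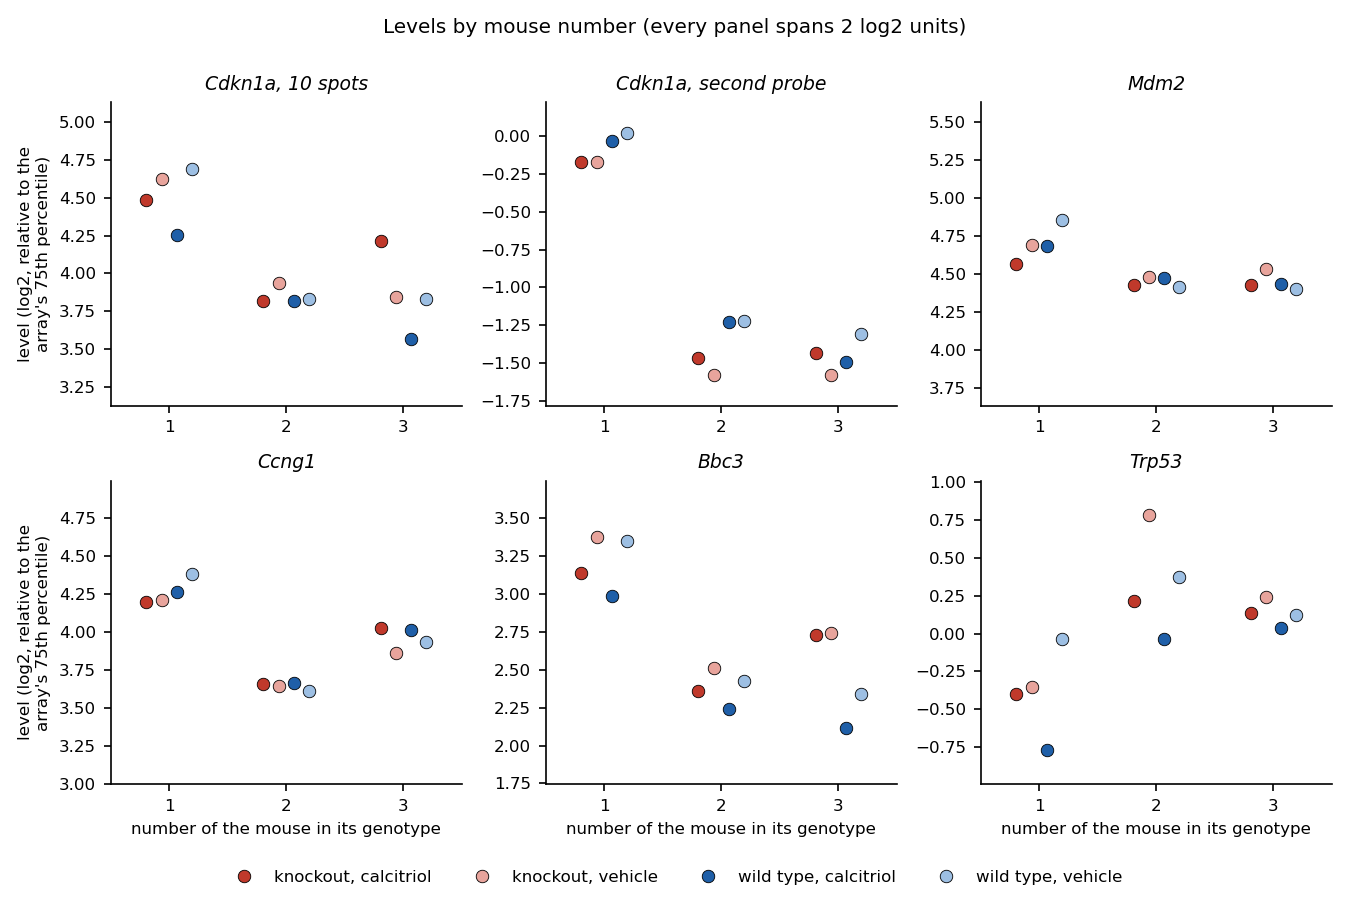
Levels of 6 probes (log2, relative to the 75th percentile of each array) by the number of the mouse, coloured by group. The 4 points at number 1 lie above the other 8 in each panel except that of Trp53, where they lie lower, with ranges that just meet.

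Other genes of the p53 network were taken from a list of 36 further targets, of which 35 were measured. The arrays of the mice numbered 1 all lay above the other 8 for 14 of the 35 and below them for 2, beside 5.82% and 7.5% of all genes. The median difference was 0.31 over these targets and -0.09 over all genes, and 26 of the 35 were above 0. The genes named here were chosen after their values were seen. Fas, a death receptor, was 0.06 to 0.36 in the mice numbered 1 and -2.58 to -0.48 in the others, the largest difference in the list at 1.51. Zmat3, an RNA-binding regulator of growth, was 3.17 to 3.40 against 2.20 to 2.92. Phlda3, an inhibitor of Akt, was 5.30 to 5.39 against 4.34 to 4.85. The other 11 were Sesn1, Sesn2, Trp53inp1, Tnfrsf10b, Aen, Xpc, Polk, Ercc5, Bcl6, Ak1 and Tob1, and the 2 that lay below were Tigar and Ppm1d. Of 15 p53 regulators and relatives 3 lay above and 1 below, with a median of -0.12.
Proliferation genes were lower in the same arrays. Of 21 such genes, 15 had all 4 arrays below the other 8 and 0 had them above, and the mean difference was below 0 for all 21, with a median of -0.57. Mki67, the marker of cycling cells, was 5.0 to 5.45 in the mice numbered 1 and 5.49 to 5.78 in the others, and Mcm3, a subunit of the replicative helicase, 3.63 to 4.0 against 4.45 to 4.85. Among 18 measured G1 cyclins, CDKs, pocket proteins and their partners, 7 lay below and 0 above, beside the same shares of all genes. With arrays scaled to their median, which moved the median of all genes to 0.20, the medians were 0.60 for the p53 targets and -0.28 for the proliferation genes. The counts under that scaling were 2 of the 10 members above (Cdkn1b and Bbc3), 10 of 35 targets above and 0 of 21 proliferation genes below, beside 4.27% and 0.322% of all genes.

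**Figure D4:**
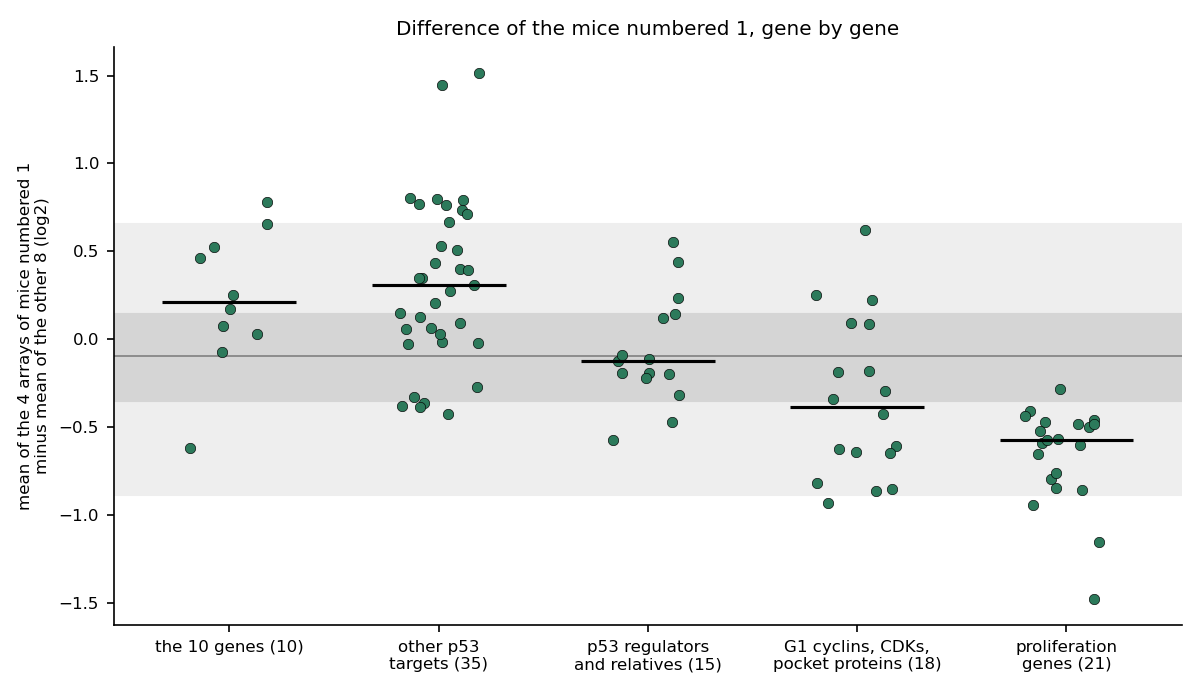
Mean of the 4 arrays of the mice numbered 1 minus the mean of the other 8 (log2), with a point for each gene of 5 lists, a line at each list's median, and grey bands for the middle 50% and 90% of all 24245 genes. The medians are 0.21 for the 10 genes, 0.31 for the other p53 targets and -0.57 for the proliferation genes.

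In the calcitriol and genotype comparisons, no gene of the related lists was called, apart from the vitamin D targets given as a check. Among the 35 further p53 targets, 14 were above 0 and 21 below in VDR KO and 16 above and 19 below in wild type. The smallest unadjusted p values in wild type were those of Cd80 (0.45, SE 0.20), Gtse1 (0.47, SE 0.23) and Btg2 (-0.44, SE 0.26), all with limma adjusted p = 1. The 4 further CDK inhibitors ranged from -0.17 to 0.02 in VDR KO and from -0.18 to 0.04 in wild type, where Cdkn3 gave -0.09, Cdkn2a -0.18 and Cdkn2c 0.04. Of 15 p53 regulators and relatives, the smallest p values in wild type were those of Trp73 (0.38), Chek1 (0.66) and Chek2 (-0.17), none called. Gadd45b, Gadd45g and Gadd45gip1 had effects of 0.25, 0.15 and -0.06 in wild type, none called. Of 11 measured relatives of the BCL2 family, Mcl1 gave -0.26, Bcl2 0.37 and Bcl2l11 -0.38 in wild type, none past the threshold. Among the G1 genes, Rbl2 gave -0.28, E2f4 0.47 and Ccnd1 -0.15 in wild type, none called. The 21 proliferation genes had a median of -0.02 in VDR KO and -0.06 in wild type, where Aurkb gave 1.27 (SE 0.82), Mcm5 -0.27 and Plk1 -0.11.

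The genes whose levels were most like those of Cdkn1a over the 12 arrays were 4933439C10Rik (Pearson r = 0.98), Grin1 (0.97) and Lhx5 (0.97), each above background on all 12 arrays. These r values describe 12 arrays of 6 mice among which the mice numbered 1 stand apart. Over the 8 arrays of the other mice they were 0.95, 0.86 and 0.85.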

How the data were processed

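The authors deposited linear spot intensities from 12 one-colour arrays, made with Agilent Feature Extraction 11.5.1.1 on a design annotated on mm9, per the file headers. The background was subtracted and a spatial trend removed, and nothing was normalized between arrays. Control and outlier spots were left out, log2 was taken, each array's 75th percentile subtracted and spots of a probe averaged. A probe was kept where some group had it well above background on each of its 3 arrays, and the probe of highest mean level stood for each of 24245 genes. Of these, 14905 were named through RefSeq's table (GRCm38.p6), and the others kept the array's own identifier. The number of arrays limits the precision.

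All genes were fitted as 4 group means with limma 3.58.1 in R 4.3.3 (variance trend, 2-sided, Benjamini-Hochberg, threshold 0.05), tested on simulated data. The normexp alternative (offset 50) uses raw median intensities, since the files used hold no mean signal. Same-numbered samples deviated together in all 4 comparisons of 2 groups (correlation 0.10 to 0.64). They are 1 mouse within a genotype and share a number only across genotypes.

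The members and lists were chosen with earlier results of these data known. From the other lists, genes that were called are named, otherwise the 3 with the smallest unadjusted p for calcitriol in wild type, and for Cdkn1a the 3 genes of highest correlation.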

Additional observations from a re-analysis of the deposited data

Results flagged for a closer look

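Cdkn1c, a CDK inhibitor, was lower with calcitriol in 3 of 3 VDR KO mice and higher in 3 of 3 wild-type mice. The difference of the effects, wild type minus knockout, was 0.38 on the log2 scale, and limma's test of it had an adjusted p of 1 (0.546 with the mouse as a block). With the slide as a block the VDR KO effect was 0.04, and on the largest slide alone 0.16. Both values rest on the VDR KO vehicle array of mouse 3 and are not differences within mice. Without the calcitriol array of mouse 2 the wild-type effect was -0.05. The differences within mice cross slides in every mouse but wild-type mouse 3, so that treatment and slide cannot be told apart in them.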

How the results depend on the processing

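No member was called under any alternative run, 19 for each of the 4 comparisons of 2 groups and 25 for the difference of effects, which changed the background correction, scaling, filter, variance trend, probes, arrays, slide or block, or left out arrays. Over 1010 values of single members the sign changed in 152, 115 of them on leaving out arrays, and the smallest adjusted p was 0.147. With the replicate block, the count of members called was 0 in each comparison, while the count of all genes called was 0 for calcitriol in VDR KO and 235 in wild type (without the block 0 and 39), 58 for the difference of effects (7), and 1 and 128 for VDR KO against wild type with vehicle and calcitriol (1 and 50). Scaling to the median moved the median of all genes to -0.25 for calcitriol in VDR KO, 0.44 in wild type, 0.69 for their difference and 0.70 for genotype with vehicle, and called 70 genes in wild type and 21 in the difference. Under it the wild-type effect of Cdkn1a was 0.23, below that median. The slide as a block called 6, 1 and 34 genes for calcitriol in wild type, the difference and genotype with calcitriol, and the largest slide alone 3, 2 and 16. Leaving out the mice numbered 3 gave 149 genes for calcitriol in VDR KO and 84 in wild type, and leaving out those numbered 2 gave 0 and 1. Counts of members set apart by mouse number, an alternative chosen after seeing the data, ran from 2 to 5 over 6 settings. The slide, the single arrays of each mouse and 3 mice per genotype limit these values.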
